A study of Danio rerio with 4 samples.

Results

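Polyamine metabolism was followed through 10 zebrafish genes as ovarian follicles pass from primary growth to the pre-vitellogenic stage. The genes were odc1, amd1, srm, sms and sat1a.1, taken by name, and every gene whose name begins with sat1 or oaz, which added sat1b, oaz1a, oaz1b, oaz2a and oaz2b. They make up 10 of the 29458 gene names and 26 of the 56711 transcript rows of the mRNA table. The genes were selected on their FPKM values at both stages, which were known beforehand, so every difference between stages below is a description of these libraries.

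Each stage had 1 mRNA library, from pre-vitellogenic (PV) follicles and from primary growth (PG) follicles of 3-month-old Danio rerio of the AB strain. The labels name no mutation and no treatment for either, and follicles were told apart by their size and shape. In PG follicles a small oocyte lies within a thin layer of follicle cells, and PV follicles have begun to grow but have not yet taken up yolk. There were no replicates, so no value has a replicate error and no test between the stages exists. The sources used here do not say whether each library pools follicles from more than a single fish.

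Polyamines (putrescine, spermidine and spermine) are small positively charged molecules that bind nucleic acids and that growing cells need for translation. Ornithine decarboxylase, encoded by odc1, makes putrescine, and spermidine synthase (srm) and spermine synthase (sms) add aminopropyl groups supplied by S-adenosylmethionine decarboxylase (amd1). Antizymes (oaz genes) bind ornithine decarboxylase and send it to the proteasome, and their own translation needs a shift of the reading frame that polyamines promote. Spermidine/spermine N1-acetyltransferases (sat1 genes) start the way back by acetylating polyamines for export or oxidation. These roles were worked out largely in mammals and yeast.

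The outstanding member was sat1a.1, whose level was 36.7 FPKM in PV follicles, against 2.08 FPKM in PG follicles. FPKM counts fragments per kilobase of transcript, relative to all fragments mapped in the library, so levels of different genes can be compared per length. As deposited, all 4 enzymes of synthesis (odc1, amd1, srm and sms) were also higher in PV follicles, by 1.53-fold to 2.58-fold. So were 69.9% of all gene names compared, and amd1 was not higher under every scaling tried. The sum of the antizymes was nearly level and sat1b was lower. Differences are given below as log2 of PV over PG on the log2(FPKM + 1) scale, which understates those of low genes. Genes that reached 1 FPKM in at least 1 library were compared, and a 2-fold difference was needed for a gene to be called.

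By that rule 9 of the 10 genes could be compared. Of these, 4 were at least 2-fold higher in PV follicles (sat1a.1, oaz2a, sms and srm), none was at least 2-fold lower, and 7 of the 9 had a positive difference, as did 69.9% of all names compared. The gene oaz2a passed the filter through the PV library alone. Over all 14480 gene names that passed the same filter 29.1% were higher by the rule and 6.53% were lower. The members' median difference was 0.80, beside 0.50 over those 14480 names. The 12022 names at 1 FPKM or more in both libraries had a median of 0.42, so differences as deposited are not centred on 0. Medians varied with transcript length, from -0.21 in the shortest of 10 equal bins of the 14480 names to 1.20 in the longest. A difference near the median of genes of like length is therefore not a departure from the rest. Of the called names 53.4% were higher after centring on the median of 0.42, against 81.7% as deposited. After scaling by the 75th percentile 39.5% were. With the trend along transcript length removed before centring it was 60.1%.

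**Figure D1:**
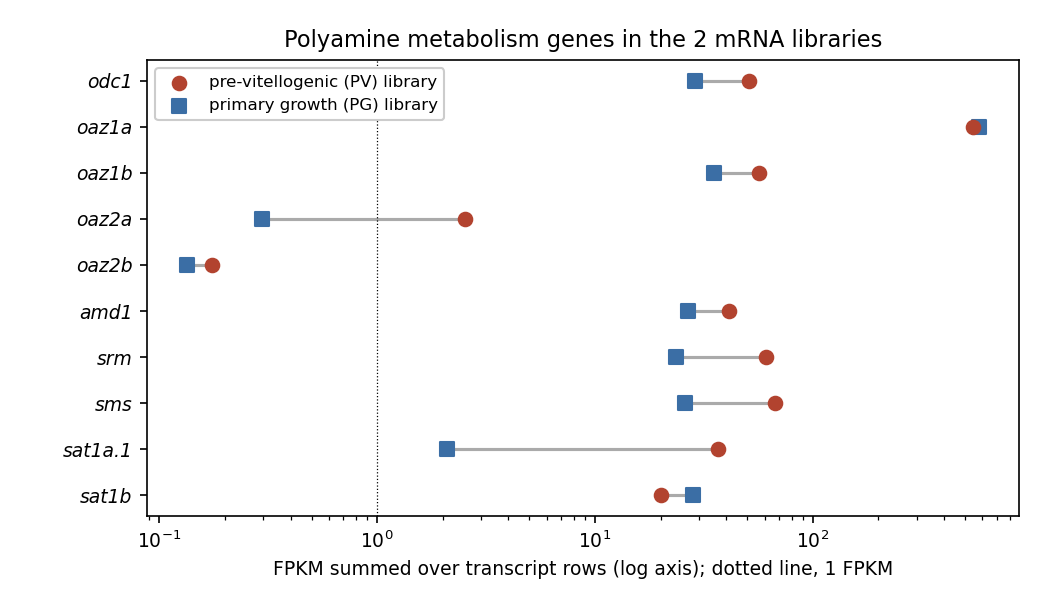
Level of each of the 10 genes in FPKM, summed over its transcript rows, on a log axis, with circles for the PV library and squares for the PG library (1 library each). The widest gap is that of sat1a.1, at 36.7 and 2.08 FPKM, while oaz1a, at 543 and 579 FPKM, is the most abundant and nearly level.

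The first step of synthesis was among the members that stayed within 2-fold. The gene odc1 (ENSDARG00000007377; Zv9 chromosome 17, 52270218 to 52283861, plus strand) was at 50.8 FPKM in PV follicles and 28.7 FPKM in PG follicles, a difference of 0.80. A single protein-coding row of 2140 bases held most of it, 91.2% in PV and 87.9% in PG follicles. That row's deposited bounds were 0.213 to 92.6 FPKM in PV and 0 to 50.8 FPKM in PG follicles, so they overlap widely. The difference of odc1 was positive under all 10 alternative settings tried, from 0.12 after scaling by the 75th percentile to 1.14 with mitochondrially encoded genes left out and the libraries then set to the same FPKM total (1.06 with the same total alone).

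Among the antizymes the abundant gene was nearly level, and the scarce oaz2a passed the 2-fold mark. The main antizyme gene oaz1a (ENSDARG00000071403; chromosome 22, 21034970 to 21040773, minus strand) was at 543 FPKM in PV follicles and 579 FPKM in PG follicles, a level above that of about 98.5% or more of the names compared in either library. It made up 90.1% of all antizyme FPKM in PV and 94.2% in PG follicles. Much of that value rests on a row of 227 bases, at 374 FPKM in PV (bounds 0 to 1599) and 351 FPKM in PG follicles (bounds 0 to 1656), a length at which an FPKM estimate is uncertain. The 2 longer rows of oaz1a were lower in PV follicles, at 107 and 61.9 FPKM, against 143 and 84.5 FPKM in PG follicles. The sign of the oaz1a difference (-0.09 as deposited) turned under 4 of the 10 alternatives, with a range of -0.79 to 0.26.

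The second copy, oaz1b (ENSDARG00000016476; chromosome 21, 820942 to 832531, minus strand), was at 56.8 FPKM in PV follicles, against 35.3 FPKM in PG follicles (difference 0.67). Over the 10 alternatives its difference ran from -0.02 to 1.05, and it was negative only after scaling by the 75th percentile. The Zv9 annotation in the table calls this gene a polymorphic pseudogene. At the level of rows only that of 2080 bases is so labelled. The rows of 658 and 2041 bases are annotated as protein-coding. With protein-coding rows only the difference was 0.97. The rows of oaz1b did not move alike as listed. The row of 658 bases was at 28.0 FPKM in PV and 13.0 FPKM in PG follicles, and the row of 2041 bases at 17.7 and 9.83 FPKM. The row of 2080 bases was nearly level at 11.1 and 12.4 FPKM. The deposited bounds of every oaz1b row start at 0 and overlap between stages, so the split among rows is uncertain. The pair of oaz2 genes was scarce. The gene oaz2a (ENSDARG00000045929; chromosome 25, 6539979 to 6556525) was at 2.53 FPKM in PV and 0.297 FPKM in PG follicles, a difference of 1.44, which was 0.51 with a pseudocount of 5 FPKM. At 0.174 FPKM in PV and 0.133 FPKM in PG follicles, oaz2b (ENSDARG00000059815; chromosome 7, 49745750 to 49753215) was the member that did not reach 1 FPKM.

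Ratios within a library do not change when a whole library is rescaled. Antizyme FPKM summed over 4 genes was 11.9 times that of odc1 in PV follicles and 21.4 times in PG follicles. With rows under 300 bases left out, a choice made after the short oaz1a row was seen, the ratios were 4.50 in PV and 9.18 in PG follicles, so the ratio was lower in PV follicles either way. The rows of oaz1a, which holds most antizyme FPKM, are shorter than the leading row of odc1. With the length trend removed the difference of oaz1a was 0.14 and that of odc1 0.39. That gap is smaller than the one between -0.09 and 0.80 as deposited. Antizyme inhibitors resemble ornithine decarboxylase and take its place on antizyme, and their summed FPKM kept step with odc1 as deposited. The gene azin1b was at 91.5 FPKM in PV and 49.9 FPKM in PG follicles, and azin1a at 9.88 and 7.28 FPKM. Their sum was 1.99 times odc1 in both libraries. Antizyme was accordingly 5.94 times the inhibitors in PV follicles and 10.7 times in PG follicles. With the length trend removed the difference of azin1b was 0.08 and that of azin1a -0.02, beside 0.39 for odc1. The inhibitors then no longer kept step with odc1.

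The supplier of aminopropyl groups, amd1 (ENSDARG00000043856; chromosome 20, 2983303 to 3012266, plus strand), was at 41.1 FPKM in PV and 26.8 FPKM in PG follicles (difference 0.60). Its rows kept their shares: the row of 4523 bases held 72.2% in PV and 74.0% in PG follicles. In these libraries long transcripts tend to be higher in PV follicles, and amd1 lies in the longest of 10 equal bins of length, where the median difference was 1.20. Once the length trend was removed its difference was -0.57, and it was also negative after scaling by the 75th percentile, so its direction depends on the scaling.

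The 2 aminopropyltransferase genes moved alike. Spermidine synthase, srm (ENSDARG00000055760; chromosome 23, 28961755 to 28969998, plus strand), was at 60.7 FPKM in PV follicles and 23.5 FPKM in PG follicles. Spermine synthase, sms (ENSDARG00000008155; chromosome 21, 24676854 to 24694112, minus strand), was at 66.9 FPKM in PV follicles and 25.9 FPKM in PG follicles. Both differences were 1.33, and the sms to srm ratio was 1.102 in PV and 1.104 in PG follicles. Against amd1, srm was 1.48 times as high in PV follicles and 0.877 times as high in PG follicles. Each has a single row in the table, with bounds of 2.42 to 119 FPKM (srm) and 1.72 to 132 FPKM (sms) in PV follicles, which reach into the bounds of 0 to 49.0 and 0 to 54.1 FPKM in PG follicles. Both were still positive but under 2-fold after centring (0.92 each) and after scaling by the 75th percentile (0.64 each). With length taken out sms was at 0.92 and srm, whose row is 2959 bases long, at 0.30.

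The acetyltransferase gene sat1a.1 (ENSDARG00000035652; chromosome 5, 4339516 to 4350162, plus strand) had a difference of 3.61, or 17.6-fold on plain FPKM. Among the 14480 names compared, 25 had a larger difference. In level it stood at percentile 73.3 of these names in PV follicles and at percentile 25.1 in PG follicles. Its difference ran against the length trend, since genes of its length had a median of -0.17, and it was at least 2-fold higher under all 10 alternatives, from 2.56 with a pseudocount of 5 FPKM to 4.08 with one of 0.1 FPKM.

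All 4 transcript rows of sat1a.1 were higher in PV follicles. The coding row of 810 bases was at 23.0 FPKM in PV (bounds 0 to 54.4) and 0.726 FPKM in PG follicles (bounds 0 to 2.33). A shorter coding row of 687 bases was at 6.63 FPKM in PV and 0.961 FPKM in PG follicles. The row annotated for nonsense-mediated decay was at 5.34 and 0.195 FPKM, and the retained-intron row at 1.75 and 0.203 FPKM. The leading coding row thus held 62.6% of the gene in PV and 34.8% in PG follicles, where the short coding row led with 46.1%. A value of 2.08 FPKM spread over 4 rows gives little precision to the shares in PG follicles.

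**Figure D2:**
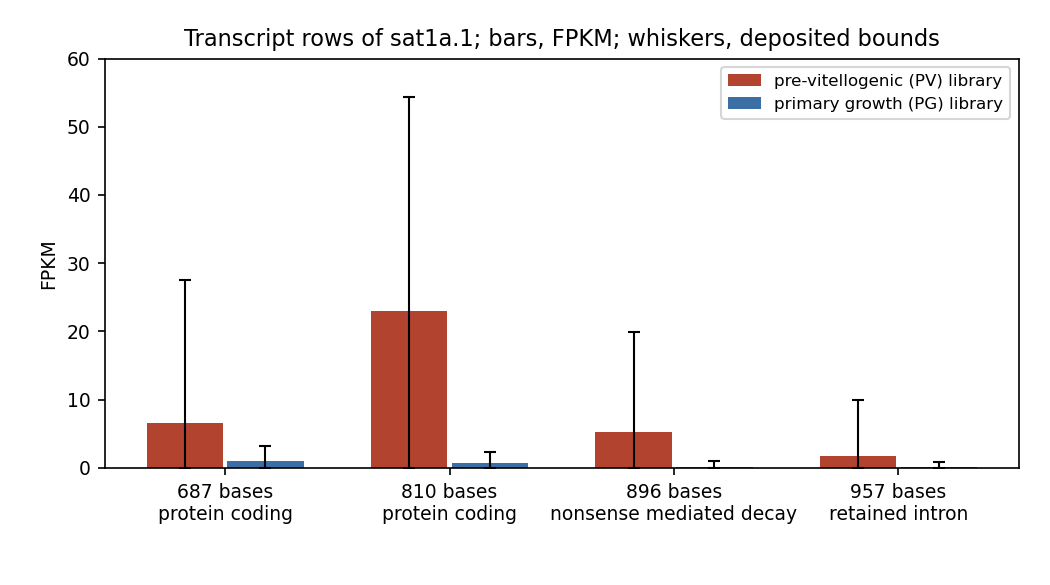
FPKM of the 4 transcript rows of sat1a.1, left bars for the PV library and right bars for the PG library, with whiskers at the deposited lower and upper bounds. Every row is higher in PV follicles, the row of 810 bases leads there with 62.6% of the sum and the row of 687 bases leads in PG follicles with 46.1%, and all lower bounds are 0, so the whiskers of the stages overlap.

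No member row had bounds that separated the stages. Of 26 rows, 19 reached 1 FPKM in the higher library, and in 0 of them did the deposited intervals of PV and PG follicles fail to overlap. Across the table this happened in 6 of 21775 rows, or 0.0276%. Of the 19 rows, 15 were higher and 4 lower in PV follicles, while 68.4% of all rows at that level were higher. A lower bound above 0 was given for 3 of the 19 in PV and for 0 in PG follicles.

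The related gene sat1b (ENSDARG00000032272; chromosome 24, 22581877 to 22586792, plus strand) went the other way, at 20.2 FPKM in PV and 28.3 FPKM in PG follicles. Its difference of -0.47 kept its sign under all 10 alternatives (-1.13 to -0.13) and passed the 2-fold mark only after scaling by the 75th percentile. The 3′ end of sat1b overlaps apoob, which lies on the opposite strand (22586178 to 22586792), at 4.26 FPKM in PV and 3.06 FPKM in PG follicles. Reads of the overlap could not be assigned here, which leaves the value of sat1b uncertain to that extent. The share of sat1a.1 in the FPKM of both genes was therefore 64.5% in PV follicles, against 6.86% in PG follicles. Their sum was 56.9 FPKM in PV and 30.4 FPKM in PG follicles, and relative to odc1 it was almost the same, at 1.12 and 1.06. That ratio was not adjusted for transcript length. It also leaves out the nearby gene described next, which was listed far higher than this sum and lower in PV than in PG follicles.

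A further acetyltransferase gene, identified by its name alone, lies close to sat1a.1. The rule does not take in its clone name, and it was looked up after the values were seen. RefSeq (GRCz12tu) lists si:ch1073-228p2.2 as an older name of sat1a.2, and the mRNA table places it (ENSDARG00000095908; Zv9 chromosome 5, 4373742 to 4373894, plus strand) 23.6 kb beyond sat1a.1. Its only row is 153 bases long, at 1315 FPKM in PV follicles (bounds 0 to 3050) and 3638 FPKM in PG follicles (bounds 0 to 7860), a difference of -1.47. It was at least 2-fold lower under all 9 alternatives that keep the row, whereas sat1a.1 was higher. As listed it exceeded sat1a.1 35.8-fold in PV and 1745-fold in PG follicles. So short a row gives an unreliable level. No sequences were compared, and how the authors' processing split reads between these genes was not tested, so the values of both are uncertain.

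Among the other catabolic genes spermine oxidase, smox, was the most abundant, at 10.6 FPKM in PV and 6.53 FPKM in PG follicles (difference 0.62), and PAOX, which oxidises acetylated polyamines, was at 0.263 and 0.321 FPKM. The gene sat2b, a relative of the sat1 genes, was at 0.0835 FPKM in PV and 1.57 FPKM in PG follicles (difference -1.25), while sat2a was listed at 0 in both libraries. In the list of interconversion genes and regulators of ornithine decarboxylase 1 of 5 genes compared was at least 2-fold lower, sat2b, and none was higher. Over all names 6.53% were lower and 29.1% higher. The gene sat2b passed the filter through the PG library alone. Its difference was negative under all 10 alternatives (-3.19 to -0.37) and past 2-fold under 7 of them. With protein-coding rows only it was -0.57.

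Polyamine-dependent modification of the translation factor eIF5A was represented by 4 genes, which had a median difference of -0.96. Spermidine donates the group that becomes hypusine on this factor. Its gene eif5a2 was at 489 FPKM in PV and 1009 FPKM in PG follicles, and eif5a at 175 and 324 FPKM, which was short of the 2-fold mark (difference -0.88). Deoxyhypusine synthase, dhps, which uses the spermidine, was at 19.5 and 18.8 FPKM, while the hydroxylase of the next step, dohh, was at 19.4 FPKM in PV and 41.6 FPKM in PG follicles. An opposite-strand gene that overlaps dohh was at 0.574 and 1.31 FPKM. Thus 2 of 4 were at least 2-fold lower, eif5a2 and dohh, beside 6.53% of all names. The list's median was negative under every scaling tried (-1.65 to -0.62), although 0 genes passed the 2-fold mark once the libraries were set to the same FPKM total. The enzyme genes srm and sms were at least 2-fold higher in the same libraries as deposited, as were 29.1% of all names. Both were under 2-fold after centring (0.92 each), and srm was at 0.30 with length taken out.

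Methylthioadenosine, the by-product of both aminopropyltransferases, is recycled to methionine. Its phosphorylase gene mtap was at 74.5 FPKM in PV and 90.9 FPKM in PG follicles (difference -0.28). Of 10 genes compared for S-adenosylmethionine supply and methionine salvage 1 was at least 2-fold higher, MTR, which encodes methionine synthase, at 18.9 FPKM in PV and 6.29 FPKM in PG follicles. That gene has a long transcript, and its difference of 1.45 was 0.41 with length taken out. The abundant S-adenosylmethionine synthetase gene mat2aa was at 227 FPKM in PV and 145 FPKM in PG follicles. Its scarce relative mat2ab was at 1.46 and 0.921 FPKM, a similar ratio of PV to PG (1.59, against 1.56 for mat2aa). None of the list was at least 2-fold lower as deposited, and over all names 29.1% were higher and 6.53% lower.

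Genes that supply or use arginine and ornithine were mostly scarce. Of 5 compared, 2 were at least 2-fold lower and 0 higher, beside 6.53% and 29.1% of all names. With a pseudocount of 5 FPKM 0 of the 5 were lower (otc -0.60, gatm -0.83), and gatm passed the filter through the PG library alone. Ornithine transcarbamylase, otc, was at 1.71 FPKM in PV and 5.15 FPKM in PG follicles, and gatm, which starts creatine synthesis from arginine, at 0.941 and 5.53 FPKM. The arginase gene arg2 was at 1.35 and 1.83 FPKM, and arg1 was listed at 0 in both. The most abundant genes of this list were slightly higher in PV follicles as deposited. They were aldh18a1, at 60.6 FPKM in PV and 52.1 FPKM in PG follicles, and asl, at 16.5 and 14.6 FPKM. Among 5 transport genes compared 1 was at least 2-fold higher, atp13a2, whose human counterpart exports polyamines from lysosomes, at 25.9 FPKM in PV and 5.80 FPKM in PG follicles (difference 1.98, and 0.95 with length taken out). None of them was at least 2-fold lower.

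Over all 5 lists, 29 of the 39 genes found passed the filter, of which 2 (6.90%) were at least 2-fold higher and 5 (17.2%) at least 2-fold lower. The corresponding shares over all names were 29.1% and 6.53%. Of the lower genes, sat2b and gatm passed the filter through the PG library alone, so the filter largely fixed their direction. Across the alternatives 0 to 4 genes of the lists were higher and 1 to 8 lower, while the shares over all names moved too. After scaling by the 75th percentile 8 of 28 were lower, beside 17.6% of all names. At a pseudocount of 5 FPKM 1 of 29 was lower, beside 3.42%. With the length trend removed 0 of 29 were higher, beside 12.9% of all names. At the same FPKM total 4 of 31 were higher, beside 37.8%. The lists' median difference of 0.17 lay below the 0.50 of all names as deposited. It was negative after centring (-0.25), after scaling by the 75th percentile (-0.55) and with length taken out (-0.25). The medians of all names were then 0.08, -0.16 and 0.03. Under the other settings the lists' median was positive. It was 0.47 at the same FPKM total, beside 0.72 over all names, and 0.56 with mitochondrially encoded genes also left out, beside 0.79. A positive difference was found in 16 of the 29 (55.2%), against 69.9% of all names.

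**Figure D3:**
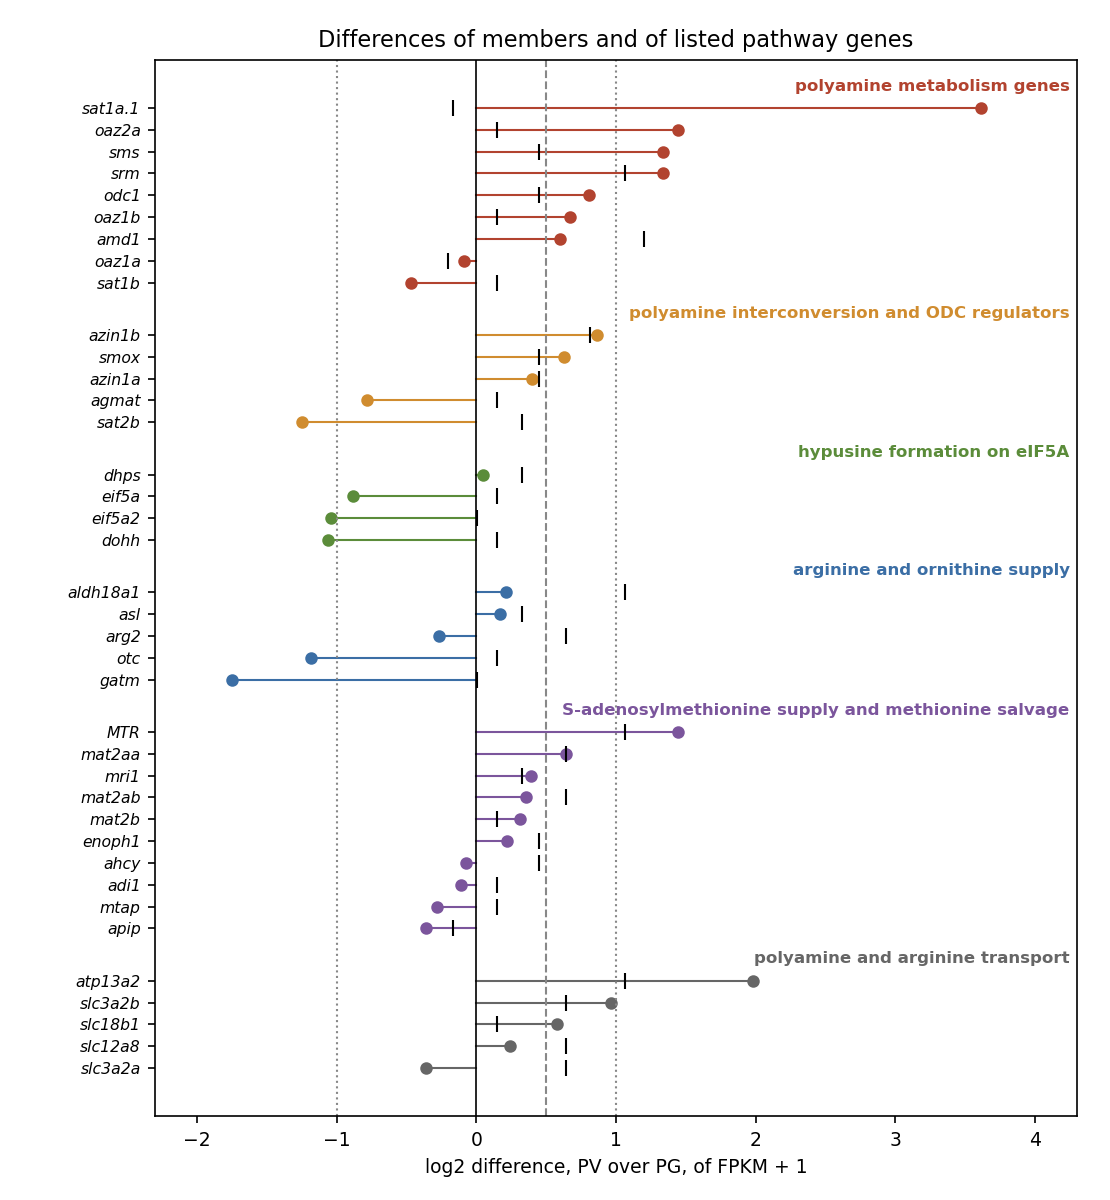
Log2 difference of PV over PG follicles for the 9 polyamine genes compared and for 29 genes of the 5 lists, each a dot joined to 0. Dotted lines mark 2-fold, the dashed line is the median of all 14480 names (0.50), and black ticks are the median of genes of similar transcript length. The dot of sat1a.1 stands far to the right of its tick, srm lies near its tick of 1.06, and amd1 lies left of its tick of 1.20.

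Some cell type markers moved with the stage too. Both libraries carried oocyte genes, with 6 of 6 markers found at 1 FPKM or more, and their sum was 1512 FPKM in PV and 3759 FPKM in PG follicles. The linker histone gene h1m was at 691 and 2338 FPKM and zar1 at 357 and 1086 FPKM, both at least 2-fold lower in PV follicles under all 10 alternatives. The helicase gene vasa was at 174 FPKM in PV and 79.4 FPKM in PG follicles, and bmp15 was nearly level at 114 and 117 FPKM. Higher in PV follicles as deposited were also dazl, at 115 and 82.3 FPKM, and gdf9, at 62.2 and 56.4 FPKM. The lower sum in PV follicles thus rests on h1m and zar1, and the median difference of the 6 markers was 0.05. The 10 follicle cell markers found summed to 28.0 FPKM in PV and 3.50 FPKM in PG follicles, where fshr and nr5a1a were listed at 0. The highest of them was inha, at 7.31 FPKM in PV and 1.25 FPKM in PG follicles. Of the 10, 8 passed the filter, 7 of these through the PV library alone, so that the filter largely fixes their direction and no count of calls is read from them. The 5 vessel and smooth muscle markers summed to 33.7 FPKM in PV and 6.60 FPKM in PG follicles, led by acta2 at 15.6 and 2.90 FPKM. Among them kdrl, cdh5 and myh11a passed the filter through the PV library alone, and cdh5 stayed within 2-fold (difference 0.53). The 3 erythrocyte markers found summed to 52.4 and 55.2 FPKM, with hbae1 listed at 0 in both, and the 6 leukocyte markers to 3.52 and 5.69 FPKM, with mpeg1 listed at 0 in PG follicles. The part of follicle and vessel cells in the level of sat1a.1 was not tested. In whole follicles, more cells of a type and more RNA per cell cannot be told apart.

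By nearness of levels in both libraries, sat1a.1 was closest to gfpt1 (27.7 FPKM in PV and 1.85 FPKM in PG follicles), vac14 (36.2 and 3.33 FPKM) and RB1CC1 (26.6 and 2.77 FPKM). Nearness was the Euclidean distance of log2(FPKM + 1), and came to 0.41, 0.49 and 0.54. It was taken among 10819 protein-coding names that passed the filter. Clone-like names, names with brackets and names ending in a point and a number were left out. With 2 libraries it says only that these levels are alike.

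**Figure D4:**
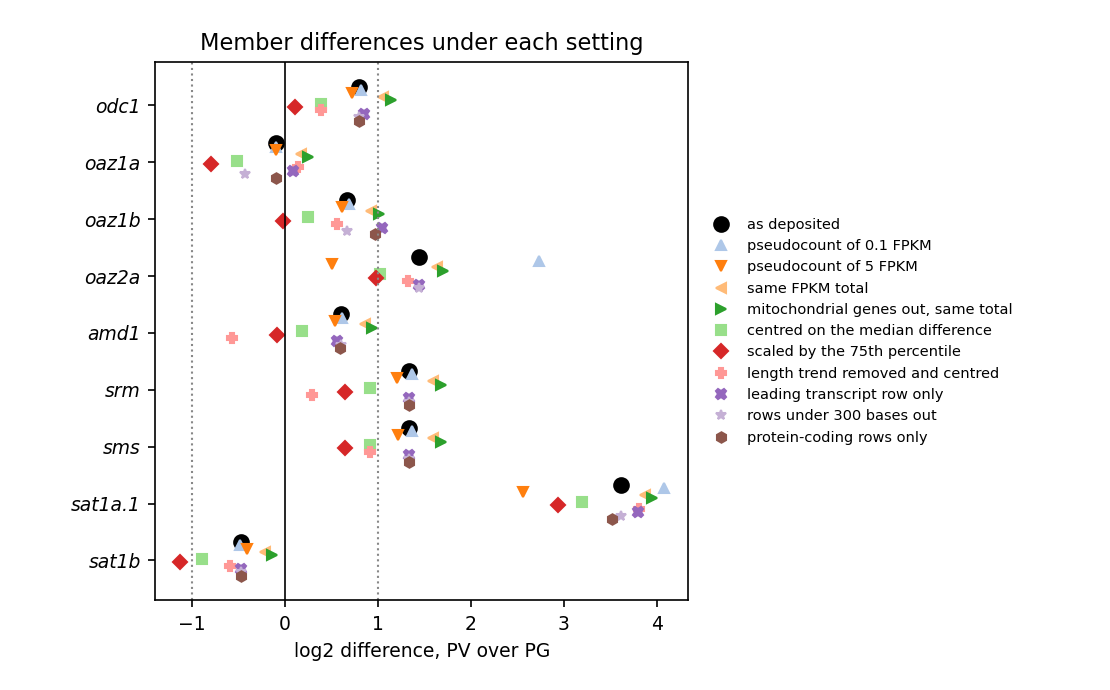
Log2 difference of PV over PG follicles for the 9 polyamine genes compared, as deposited (large black circles) and under each of 10 alternatives. The gene oaz2a has 9 of them. The points of sat1a.1 all lie beyond 2-fold (2.56 to 4.08). Those of srm (0.30 to 1.68) and sms (0.64 to 1.68) straddle the 2-fold line. Points of amd1, oaz1a and oaz1b fall on both sides of 0.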

How the data were processed

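The authors' mRNA table gives FPKM per Ensembl transcript, with deposited lower and upper bounds, for 1 PV and 1 PG library. Stages were taken from the cell type label, because every sample title says PG. Per the submitters' processing notes, TopHat2 2.0.11 and Cufflinks 2.2.1 were used with build Zv9, in an order not stated. Read depth and strand setting were not stated either. The summed FPKM was 608220 in PV and 730172 in PG follicles. The small RNA table was not used here.

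FPKM was summed by gene name with pandas 2.3.3 in Python 3.11.15; a row with no name kept its gene ID. With 1 library per stage there is no test. Calls used a pseudocount of 1 FPKM, a minimum of 1 FPKM in the higher library and a 2-fold difference. The code was run on simulated data with little noise and planted changes well past the 2-fold mark. The simulation had no trend with transcript length and left out genes scarce in PG follicles. It therefore checks the code alone and does not show how reliable the calls of real genes are. Gene length is the mean over transcript rows weighted by FPKM, and was cut into 10 equal bins. Genes named were all members, list genes past 2-fold, a few fixed list genes and the 3 genes nearest to sat1a.1; others were named after their values were seen. Members and lists were chosen with earlier results of these data known. Alternatives were other pseudocounts, filters, scalings and choices of transcript rows.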

Additional observations from a re-analysis of the deposited data

How the results depend on the processing

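Of the 9 polyamine genes compared, 4 were at least 2-fold higher in PV follicles as deposited. After centring 2 were, and with the length trend removed 2 were, sat1a.1 and oaz2a both times. The gene oaz2a passed the filter through the PV library alone. After scaling by the 75th percentile 1 was higher (sat1a.1) and 1 was at least 2-fold lower (sat1b). Over all names 15.2% were higher after centring and 12.9% with the length trend removed. After scaling by the 75th percentile 11.5% of all names were higher and 17.6% lower. Other settings gave 3 to 6 higher and none lower. The members' median of 0.80 passed the 2-fold mark at 1.06 with the libraries at the same FPKM total, at 1.14 with mitochondrially encoded genes left out as well and at 1.05 with the leading transcript row alone. Over all names 4207 were higher and 945 lower as deposited, against 2194 and 1913 after centring, 1574 and 2414 after scaling by the 75th percentile, 1872 and 1242 with length removed, 1960 and 495 with a pseudocount of 5 FPKM, 5607 and 651 at the same FPKM total, and 6051 and 575 at the same total with mitochondrially encoded genes left out. The cause of these changes was not tested. Leaving out rows under 300 bases, or all rows but protein-coding ones, was chosen after seeing the data. No paired analysis was possible because each stage has 1 library. The deposited bounds, mostly starting at 0, limit every value.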
